A study of Mus musculus with 9 samples.

Results

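The enzymes, regulators and carriers that make cholesterol, move it inside the cell and send it out again were followed as 31 named genes in cultured mouse group 2 innate lymphoid cells (ILC2s), lymphocytes that live in tissues and release type 2 cytokines. The members came from a fixed list of names, chosen with earlier results of these data known. Shares of members set beside all tested genes are therefore a description. They comprised 20 enzymes of the synthesis route, 4 genes that control the sterol response, 4 genes of intracellular transport and storage, and 3 genes of export. All 31 names were found among the 23234 genes of each table, with Msmo1 under its older symbol Sc4mol. The list does not hold every gene of the route.

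RNA sequencing covered 9 libraries of ILC2s taken from fat-associated lymphoid clusters of C57BL/6 mice of wild-type genotype. In 3 libraries the cells had received IL-33 together with IFN-γ, the type II interferon. In 3 libraries they had received IL-33 together with IL-27, a cytokine of the IL-12 family, and in 3 libraries IL-33 alone, the alarmin that activates ILC2s. Cultures lasted 48 h and the labels give 10 ng/ml as the dose, so IL-33 was common to all groups and no culture without it was analysed here. The labels do not say whether the replicates were separate cultures or animals, so every p-value here reflects spread among the libraries at hand, which may be partly technical.

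Cholesterol is built from acetyl-CoA through mevalonate, the isoprenoid diphosphates, squalene and lanosterol. When sterols in the endoplasmic reticulum run low, SCAP carries the transcription factor SREBP2 to the Golgi, where it is cleaved and goes on to switch on the genes of synthesis and uptake. When sterols are plentiful, INSIG proteins hold SCAP back, and oxysterols activate the liver X receptors (LXRs), which switch on the export pumps ABCA1 and ABCG1. Activated lymphocytes are known to use this route for membrane growth.

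The libraries carried the transcripts the labels lead one to look for. All 13 ILC2 markers on the list passed the filter on low values, and their summed level ran over 6246 to 10152 FPKM with IFN-γ, 12739 to 13574 FPKM with IL-27 and 14937 to 22586 FPKM with IL-33 alone. Most of each sum was the cytokine transcripts Il5 and Il13, so it is not a measure of the number of ILC2s. In replicates 1, 2 and 3 Il5 measured 1656, 2183 and 3450 FPKM with IFN-γ, and 9222, 5587 and 6141 FPKM with IL-33 alone. Il13 measured 2511, 3132 and 3348 FPKM with IFN-γ, and 11034, 6582 and 5427.5 FPKM with IL-33 alone. The gap was widest in replicate 1 for both. FPKM are fragments per kilobase of transcript, scaled to the mapped fragments of the library, so that the level is corrected for gene length. Among those 13 markers Il5, Il13 and Il2ra fell and Areg rose with IFN-γ, and Areg rose with IL-27. With libraries blocked by replicate number, Il1rl1 was also lower with IFN-γ, and with IL-27 Il2ra was lower and Id2 and Thy1 were higher. All 6 adipocyte markers were listed at 0 in every library, as were the macrophage markers Csf1r, Mrc1, Marco and Fcgr1. The 9 macrophage and monocyte markers together summed to 6.03 to 20.4 FPKM with IFN-γ, 1.37 to 17.3 FPKM with IL-27 and 3.72 to 11 FPKM with IL-33 alone. Among them Cd68 measured 4.68 to 18.8 FPKM with IFN-γ, 1.16 to 14.4 FPKM with IL-27 and 1.16 to 10 FPKM with IL-33 alone. Of 5 mast cell and basophil markers Fcer1a reached 8.3 FPKM, and the others were at most 2.3 FPKM. Of the 7 T cell markers Cd3g stood out, at 28.4 to 75.8 FPKM with IFN-γ, 41.6 to 97.6 FPKM with IL-27 and 29.8 to 79.5 FPKM with IL-33 alone, while Cd4 and Cd5 were listed at 0 in every library and Cd3e reached at most 2.51 FPKM. Cd8b1 reached at most 7.15 FPKM. Among B cell markers Cd79b measured 20.3 to 83.9 FPKM with IFN-γ, 33.2 to 55.2 FPKM with IL-27 and 33.3 to 40.3 FPKM with IL-33 alone, while Cd79a and Ms4a1 were at most 0.9 FPKM. The part of such cells in the sterol levels was not tested. Among fibroblast markers Col1a1, Col1a2, Col3a1, Sparc, Fn1 and Pdgfra were highest in replicate 3 of every group. There Col1a1 measured 8.9 to 14.6 FPKM, against at most 1.04 FPKM in replicates 1 and 2. Lum went the other way and was highest in replicate 1 of every group. It measured 4.86 FPKM there with IFN-γ, 6.62 FPKM with IL-27 and 16.8 FPKM with IL-33 alone. Dcn was highest in replicate 3 with IFN-γ and with IL-33 alone. With IL-27 it measured 1.30, 1.17 and 1.2 FPKM. The approximate depth was 862000 to 967000 fragments per library, at which 1 fragment in a transcript of 2 kb is worth 0.517 to 0.580 FPKM.

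Promoter sequences are shown for Lss, Sc4mol, Insig1 and Soat1, members from the synthesis, control and storage steps that fell with IFN-γ. Each runs from 250 bases before to 50 bases after the annotated start and is taken from RefSeq on build GRCm38.p6, a later build than the mm9 of the expression tables. Capitals mark the letters CCAAT read on either strand, the core of the element bound by NF-Y, a factor known to act with SREBPs.
Lss, chr10:76531355-76531654, plus strand: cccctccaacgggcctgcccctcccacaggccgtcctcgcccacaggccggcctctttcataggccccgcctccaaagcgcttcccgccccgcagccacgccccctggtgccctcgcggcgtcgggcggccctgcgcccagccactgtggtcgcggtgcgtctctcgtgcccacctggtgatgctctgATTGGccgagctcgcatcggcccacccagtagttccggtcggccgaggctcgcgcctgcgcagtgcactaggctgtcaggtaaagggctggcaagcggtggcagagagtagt
Sc4mol, chr8:64733529-64733828, minus strand: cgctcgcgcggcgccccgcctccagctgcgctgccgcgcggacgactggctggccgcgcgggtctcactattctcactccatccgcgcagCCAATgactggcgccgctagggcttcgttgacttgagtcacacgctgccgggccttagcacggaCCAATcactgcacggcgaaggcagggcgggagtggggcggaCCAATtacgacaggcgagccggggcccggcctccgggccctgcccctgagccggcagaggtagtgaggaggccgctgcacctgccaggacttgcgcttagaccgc
Insig1, chr5:28071162-28071461, plus strand: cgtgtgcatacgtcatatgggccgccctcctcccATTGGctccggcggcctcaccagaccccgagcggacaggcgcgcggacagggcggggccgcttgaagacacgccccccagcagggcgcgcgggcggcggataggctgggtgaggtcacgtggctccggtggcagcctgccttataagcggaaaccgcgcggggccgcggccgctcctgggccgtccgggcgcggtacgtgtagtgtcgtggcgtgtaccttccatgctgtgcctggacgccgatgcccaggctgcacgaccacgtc
Soat1, chr1:156474279-156474578, minus strand: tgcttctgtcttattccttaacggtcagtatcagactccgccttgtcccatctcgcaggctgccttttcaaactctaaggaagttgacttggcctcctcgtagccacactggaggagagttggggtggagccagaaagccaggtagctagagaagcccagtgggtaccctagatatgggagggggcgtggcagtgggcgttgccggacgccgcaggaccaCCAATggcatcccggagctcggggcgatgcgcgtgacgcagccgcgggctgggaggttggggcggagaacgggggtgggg

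Lss, Insig1 and Soat1 each held 1 CCAAT match in this window and Sc4mol held 3. A promoter was found for 24 of the 31 members. Entries for Acat1, Fdps, Fdft1, Sqle, Stard4, Npc1 and Abcg1 were not among those used here. CCAAT was present in 20 of the 24 (83.3%), and in 15 of the 16 synthesis genes that had a promoter, Acat2 being the exception. It was held by 43.9% of the 7811 tested genes that had a promoter and by 41.1% of all 27025 genes. The E-box letters CACGTG were in 6 of the 24 members (25.0%), against 12.3% of the tested genes. An SRE-like run of the form TCACNCCAC, one version of the letters SREBPs bind, was in 1 member, Hmgcs1, whose match TCACCCCAC begins 137 bases before the start. That is 4.17% of the members, against 1.41% of the tested genes. The DR4 element bound by LXRs, AGGTCA repeated after a gap of any 4 bases, was in none of the 24 and in none of the tested genes. These motifs were read on both strands, and a match here is a run of letters, not a site shown to be bound.

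**Figure D1:**
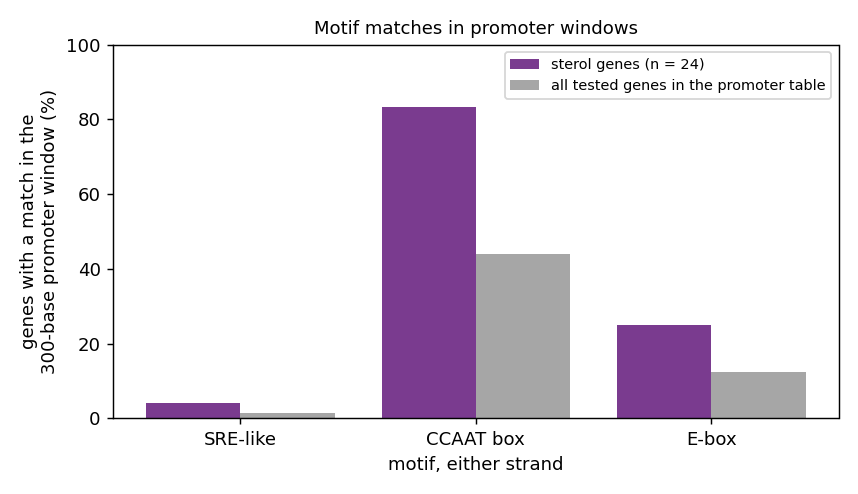
Share of genes (y axis, percent) whose promoter window of 300 bases holds each motif (x axis), for the 24 sterol genes with a promoter beside the 7811 tested genes with one. CCAAT was in 83.3% of the sterol genes and 43.9% of the tested genes, and the E-box in 25.0% and 12.3%.

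The summed level of the synthesis enzymes was lower with IFN-γ, and with IL-27, than with IL-33 alone. The FPKM of the 20 enzymes summed to 489, 534 and 458.5 with IFN-γ, 518, 608 and 458.3 with IL-27, and 690.0, 722 and 795.9 with IL-33 alone. The sum therefore averaged 494 ± 37.9 with IFN-γ, 528 ± 75.1 with IL-27 and 736 ± 54.3 with IL-33 alone (SD, n = 3 each). Every library with a second cytokine lay below every library with IL-33 alone. The sum gives most weight to abundant enzymes. Fdps averaged 64.1 FPKM with IFN-γ, 92.4 FPKM with IL-27 and 127.5 FPKM with IL-33 alone, and Idi1 50.8, 46.1 and 99.8 FPKM. Acat1, Ggps1 and Nsdhl averaged higher with IFN-γ than with IL-33 alone. In bulk RNA, fewer cells of a type that makes these transcripts and less RNA per cell cannot be told apart.

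Genes were tested with limma on log2(FPKM + 1), with the 3 groups in one fit and Benjamini-Hochberg adjustment over all 11014 genes whose mean was at least 1 FPKM. A gene is said to have risen or fallen where its adjusted p was under 0.05. All 31 members passed the filter. Against IL-33 alone, 5 members fell with IFN-γ and none rose, while 0.717% of all tested genes fell and 2.19% rose. The 5 were Fdps, Lss and Sc4mol among the enzymes, Insig1 among the regulators and Soat1 among the storage genes. The log2 fold change was below 0 for 17 of the 20 synthesis genes, as it was for 47.4% of all tested genes. Its median over the synthesis genes was -0.36, beside 0.028 over all tested genes.

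Libraries with the same replicate number deviated alike from their group means, so the numbers were taken to pair libraries, which the labels do not state. Limma was therefore also run with a block for that number, and this blocked fit is given where a call differs. In it 8 members were lower with IFN-γ and 2 were higher, where 4.66% of all tested genes were lower and 6.51% higher. The 3 enzymes added on the lower side were Idi1, Sqle and Hsd17b7, and the 2 members on the higher side were Npc2 and Nr1h2. IFN-γ libraries lay wholly below the IL-33 libraries for 10 of the 20 enzymes and for 13 of the 31 members, where 8.65% of all tested genes did so. The 13 include Abca1, which passed the filter through its IL-33 libraries. A lower value of Abca1 with IFN-γ was thus favoured in advance, and it lends these counts no weight. IFN-γ libraries lay wholly above for 1 member, Nr1h2, where 11.9% of all tested genes did so. Compared library by library under the same number, 15 of the 31 members, again with Abca1, were lower with IFN-γ in all 3 pairs, where 21.1% of all tested genes were. In all 3 pairs 2 members were higher, where 24.4% of all tested genes were.

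**Figure D2:**
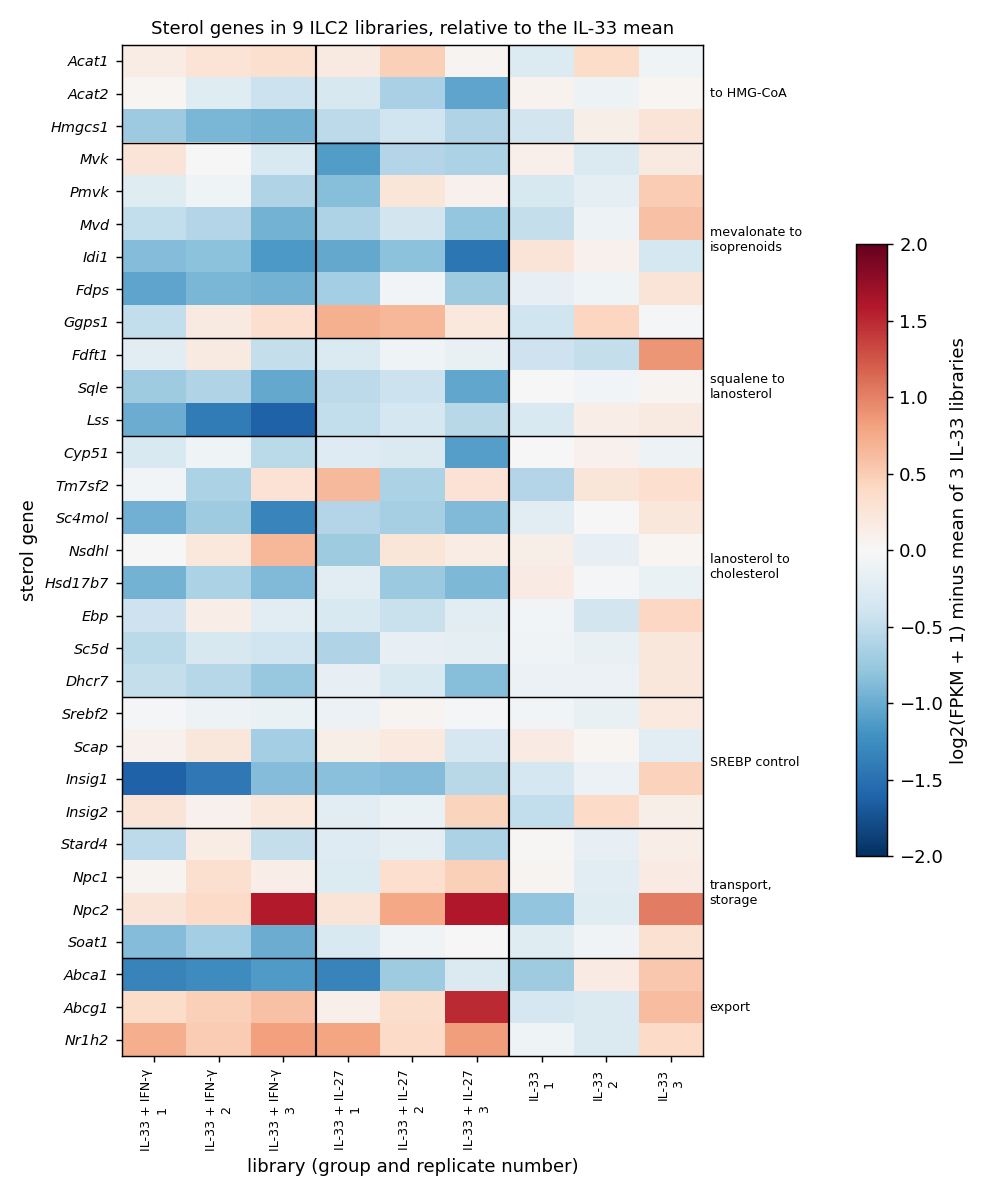
Level of each of the 31 sterol genes (rows, by pathway step) in each of the 9 libraries (columns, IFN-γ, then IL-27, then IL-33 alone), as log2(FPKM + 1) minus the mean of the 3 IL-33 libraries. Blue marks lower and red higher values. Fdps, Sqle, Lss, Sc4mol and Insig1 are blue in all 3 IFN-γ libraries, while Nr1h2 is red in all 3.

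The first steps join acetyl-CoA units into HMG-CoA. Acat1, the mitochondrial thiolase, ranged over 51.0 to 57.5 FPKM with IFN-γ, 48.0 to 64.4 FPKM with IL-27 and 37.9 to 59.3 FPKM with IL-33 alone, so the groups overlapped. Acat2, the cytosolic thiolase that feeds sterol synthesis, had 28.7, 23.4 and 20.5 FPKM with IFN-γ, 22.0, 17.4 and 12.9 FPKM with IL-27, and 29.3, 25.9 and 28.6 FPKM with IL-33 alone. Its IL-27 libraries lay below all IL-33 libraries, at a log2 fold change of -0.68 that did not pass (SE 0.22, adjusted p = 0.315). Hmgcs1, the HMG-CoA synthase and a textbook SREBP target, had 3.77, 3.21 and 3.1 FPKM with IFN-γ, 4.52, 4.99 and 4.2 FPKM with IL-27, and 5.12, 7.56 and 8.5 FPKM with IL-33 alone. The 3 groups did not overlap, IFN-γ being lowest and IL-33 alone highest. On the log2 scale the difference was -0.86 with IFN-γ (SE 0.25, adjusted p = 0.120) and -0.51 with IL-27 (SE 0.25, adjusted p = 0.572), and neither passed.

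The next enzymes phosphorylate mevalonate and turn it into isoprenoid diphosphates. Fdps, the farnesyl diphosphate synthase at the branch towards sterols and prenylated proteins (chr3:88897514-88905881, minus strand, mm9), had 60.2, 66.9 and 65.2 FPKM with IFN-γ, 78.3, 121.9 and 76.9 FPKM with IL-27, and 112.3, 118.7 and 151.5 FPKM with IL-33 alone. All 3 IFN-γ libraries lay below every other library, while IL-27 replicate 2 reached into the IL-33 range. Fdps fell by 0.97 on the log2 scale with IFN-γ (SE 0.21, adjusted p = 0.0403). With IL-27 its log2 fold change was -0.48 and did not pass (SE 0.21, adjusted p = 0.504).

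Idi1, the isomerase that supplies the building block Fdps uses, had 53.5, 55.2 and 43.7 FPKM with IFN-γ, 47.6, 55.3 and 35.4 FPKM with IL-27, and 118.2, 104.5 and 76.8 FPKM with IL-33 alone. Both cytokine groups lay below all IL-33 libraries and overlapped each other. Its log2 fold change was -0.95 with IFN-γ (SE 0.22, adjusted p = 0.0568) and -1.10 with IL-27 (SE 0.22, adjusted p = 0.0583), just short of the threshold in both. In the blocked fit Idi1 passed in both, with an adjusted p of 0.00262 for IFN-γ and 0.00229 for IL-27.

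Mvk, the mevalonate kinase, passed in neither comparison with IL-33 alone. It had 18.1, 14.9 and 12.0 FPKM with IFN-γ, 6.38, 9.60 and 9.3 FPKM with IL-27, and 16.1, 12.2 and 17.2 FPKM with IL-33 alone. Its IL-27 libraries lay below all others, while the IFN-γ and IL-33 libraries overlapped. For Mvk the log2 fold change was -0.018 with IFN-γ (SE 0.24, adjusted p = 0.984) and -0.78 with IL-27 (SE 0.24, adjusted p = 0.261). Mvd, the decarboxylase of the route, measured 12.5 to 17.5 FPKM with IFN-γ, 14.2 to 19.1 FPKM with IL-27 and 17.6 to 38.0 FPKM with IL-33 alone, so that IFN-γ and IL-33 alone just failed to overlap. Pmvk, the second kinase, and Ggps1, which makes the geranylgeranyl diphosphate used to prenylate proteins, overlapped between all groups. Pmvk measured 11.8 to 17.2 FPKM with IFN-γ, 9.72 to 21.7 FPKM with IL-27 and 14.4 to 26.4 FPKM with IL-33 alone. Ggps1 measured 8.46 to 15.8 FPKM with IFN-γ, 14.4 to 20.6 FPKM with IL-27 and 9.05 to 16.8 FPKM with IL-33 alone.

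Squalene is then made, oxidised and closed into the sterol ring. Lss, the lanosterol synthase that closes the ring (chr10:75994333-76019883, plus strand, mm9), had the most negative log2 fold change of the 31 members with IFN-γ. It had 18.1, 13.3 and 11.4 FPKM with IFN-γ, 26.0, 28.6 and 24.9 FPKM with IL-27, and 29.8, 40.5 and 41.8 FPKM with IL-33 alone. The 3 groups did not overlap, IL-27 lying between the others. Lss fell by 1.34 on the log2 scale with IFN-γ (SE 0.22, adjusted p = 0.00957), a 2.53-fold lower level. With IL-27 the log2 fold change was -0.47 and did not pass (SE 0.22, adjusted p = 0.544).

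Sqle, the squalene epoxidase and a rate-limiting enzyme of the later route, had 30.6, 32.9 and 24.4 FPKM with IFN-γ, 34.9, 37.4 and 24.2 FPKM with IL-27, and 50.8, 48.7 and 52.8 FPKM with IL-33 alone. Both cytokine groups lay below all IL-33 libraries. For Sqle the log2 fold change was -0.78 with IFN-γ (SE 0.20, adjusted p = 0.0838, and 0.0192 in the blocked fit) and -0.67 with IL-27 (SE 0.20, adjusted p = 0.255, and 0.0537 in the blocked fit). Fdft1, the squalene synthase, measured 9.1 to 14.9 FPKM with IFN-γ, 10.5 to 12.3 FPKM with IL-27 and 9.11 to 24.9 FPKM with IL-33 alone, where replicate 3 alone stood high.

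Of the 8 enzymes that turn lanosterol into cholesterol, Sc4mol fell with IFN-γ. Sc4mol, the methylsterol monooxygenase that removes methyl groups from the ring (chr8:67196936-67212589, minus strand, mm9), had 24.3, 29.1 and 18.6 FPKM with IFN-γ, 31.8, 29.9 and 25.6 FPKM with IL-27, and 40.8, 48.3 and 56.3 FPKM with IL-33 alone. Every library with a second cytokine lay below every IL-33 library. Sc4mol fell by 0.99 on the log2 scale with IFN-γ (SE 0.21, adjusted p = 0.0374), and its log2 fold change with IL-27 was -0.71 (SE 0.21, adjusted p = 0.240).

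Hsd17b7, the sterol ketoreductase, had 9.48, 12.1 and 10.0 FPKM with IFN-γ, 16.3, 11.1 and 9.9 FPKM with IL-27, and 21.6, 19.0 and 17.4 FPKM with IL-33 alone, again without overlap with IL-33. Its log2 fold change with IFN-γ was -0.82 (SE 0.23, adjusted p = 0.0977, and 0.0338 in the blocked fit). Cyp51, the lanosterol demethylase, had 55.8, 65.1 and 47.4 FPKM with IFN-γ, 57.9, 56.6 and 31.8 FPKM with IL-27, and 69.6, 73.5 and 64.5 FPKM with IL-33 alone. Its IL-27 libraries lay below all IL-33 libraries and its IFN-γ libraries did not quite do so.

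Dhcr7, the reductase that makes cholesterol from 7-dehydrocholesterol, and Sc5d, the desaturase one step earlier, lay below the IL-33 range in both cytokine groups without passing the test. Dhcr7 measured 10.4 to 12.8 FPKM with IFN-γ, 9.6 to 16.2 FPKM with IL-27 and 16.7 to 21.5 FPKM with IL-33 alone. Sc5d measured 37.4 to 43.7 FPKM with IFN-γ, 35.8 to 48.7 FPKM with IL-27 and 49.2 to 64.2 FPKM with IL-33 alone. Ebp, the sterol isomerase, Nsdhl, a dehydrogenase of the demethylation complex, and Tm7sf2, a sterol reductase, overlapped between groups. Ebp measured 19.7 to 29.4 FPKM with IFN-γ, 19.4 to 22.6 FPKM with IL-27 and 20.6 to 35.9 FPKM with IL-33 alone. Nsdhl measured 11.5 to 18.8 FPKM with IFN-γ, 6.66 to 13.9 FPKM with IL-27 and 10.2 to 12.6 FPKM with IL-33 alone. Tm7sf2 corresponded to about 1.05 to 4.22 fragments in any library, so a difference there was not detectable at this depth.

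**Figure D3:**
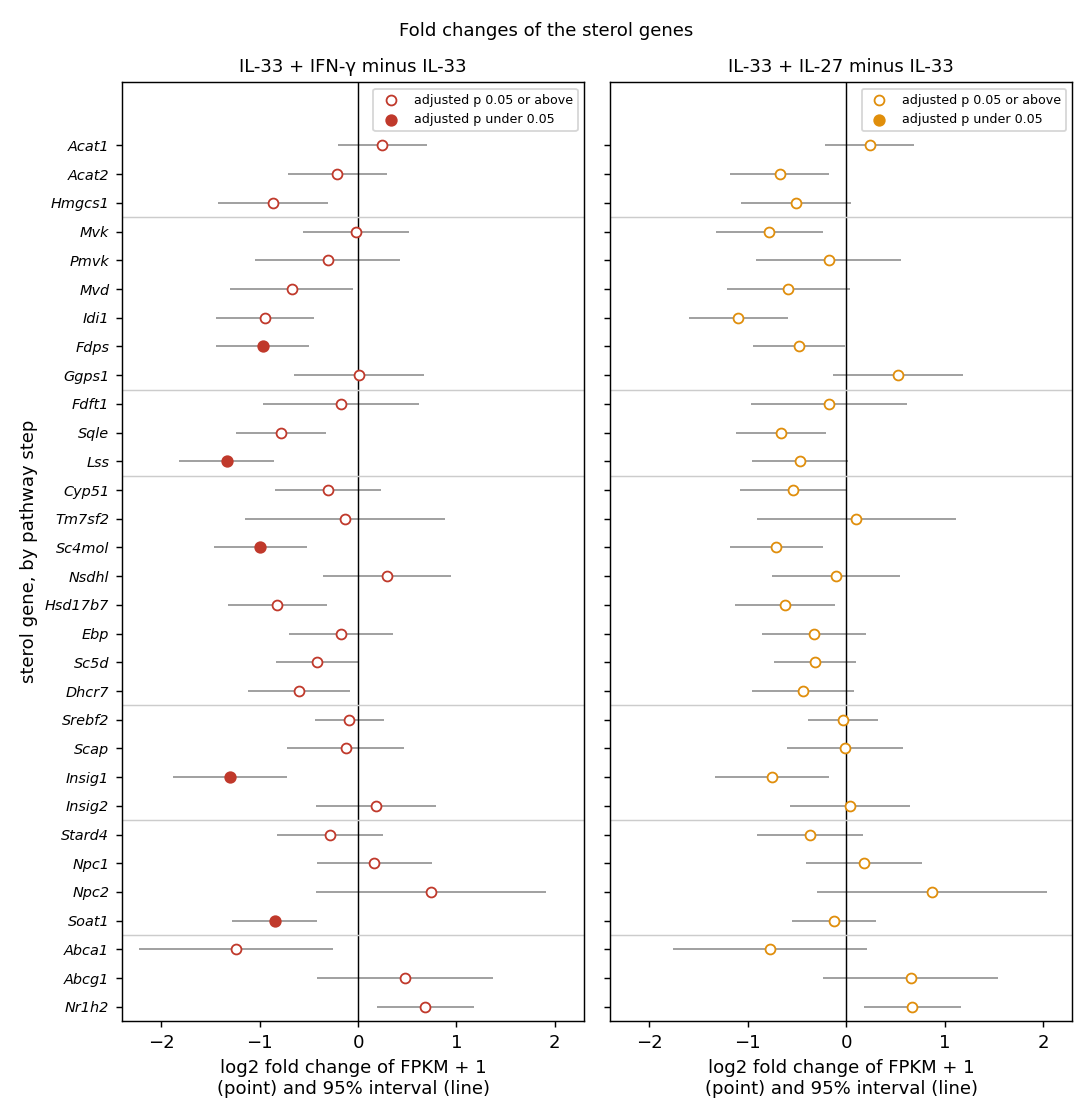
Log2 fold change of FPKM + 1 against IL-33 alone (x axis; point, with a line for the 95% interval) of the 31 sterol genes by pathway step, with IFN-γ at left and IL-27 at right. Filled points have an adjusted p under 0.05; these are Fdps, Lss, Sc4mol, Insig1 and Soat1 with IFN-γ and none with IL-27.

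The control genes split, with Insig1 falling and the others near the IL-33 level. Insig1, the retention protein that is itself a well known SREBP target (chr5:28397952-28405201, plus strand, mm9), had 35.5, 40.8 and 60.7 FPKM with IFN-γ, 61.6, 60.6 and 75.6 FPKM with IL-27, and 87.0, 102.9 and 153.4 FPKM with IL-33 alone. IL-33 alone lay above both other groups, and IFN-γ replicate 3 touched the lower end of the IL-27 range. Insig1 fell by 1.30 on the log2 scale with IFN-γ (SE 0.26, adjusted p = 0.0268), a 2.46-fold lower level. With IL-27 its log2 fold change was -0.75 (SE 0.26), at an adjusted p of 0.341 without the block and 0.0142 with it, and the blocked p was 0.108 without the replicate 3 libraries.

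Srebf2, which encodes SREBP2, had 55.3, 53.1 and 51.5 FPKM with IFN-γ, 52.0, 58.7 and 55.8 FPKM with IL-27, and 54.5, 51.2 and 65.4 FPKM with IL-33 alone. The groups overlapped. Its log2 fold change was -0.089 with IFN-γ (SE 0.16, 95% interval -0.44 to 0.26, adjusted p = 0.859) and -0.033 with IL-27 (SE 0.16, 95% interval -0.38 to 0.32, adjusted p = 0.979). Scap, the escort of SREBP2, had 30.1, 33.1 and 17.3 FPKM with IFN-γ, 30.6, 32.6 and 22.1 FPKM with IL-27, and 31.9, 29.2 and 24.4 FPKM with IL-33 alone, with replicate 3 lowest in each group. For Scap the log2 fold change was -0.12 with IFN-γ (SE 0.27, adjusted p = 0.889) and -0.012 with IL-27 (SE 0.27, adjusted p = 0.998). Insig2, the second INSIG protein, had 15.0, 13.2 and 14.5 FPKM with IFN-γ, 10.5, 11.3 and 17.3 FPKM with IL-27, and 8.50, 16.5 and 13.5 FPKM with IL-33 alone. The Insig2 groups overlapped, and its log2 difference was 0.18 with IFN-γ (SE 0.27, 95% interval -0.43 to 0.79, adjusted p = 0.832) and 0.034 with IL-27 (SE 0.27, 95% interval -0.58 to 0.65, adjusted p = 0.990). These are transcript levels, and cleavage of SREBP2 was not measured.

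Among the genes that move and store sterol, Soat1 fell with IFN-γ. Soat1 encodes the acyltransferase that esterifies cholesterol for storage in droplets (chr1:158358239-158404459, minus strand, mm9). It had 34.8, 39.5 and 31.5 FPKM with IFN-γ, 51.6, 61.1 and 64.0 FPKM with IL-27, and 54.2, 60.5 and 79.6 FPKM with IL-33 alone. IFN-γ libraries lay below all others, while IL-27 and IL-33 alone overlapped. Soat1 fell by 0.85 on the log2 scale with IFN-γ (SE 0.19, adjusted p = 0.0485), and its log2 fold change with IL-27 was -0.12 (SE 0.19, adjusted p = 0.909).

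Npc1 and Npc2 encode the pair of proteins that hand cholesterol out of the lysosome. Npc1 had 5.65, 6.96 and 6.0 FPKM with IFN-γ, 4.33, 7.07 and 7.9 FPKM with IL-27, and 5.69, 4.46 and 6.2 FPKM with IL-33 alone, and the groups overlapped. For Npc1 the log2 fold change was 0.16 with IFN-γ (SE 0.26, adjusted p = 0.840) and 0.18 with IL-27 (SE 0.26, adjusted p = 0.901). Npc2 had 46.6, 50.5 and 118.3 FPKM with IFN-γ, 46.2, 66.7 and 119.0 FPKM with IL-27, and 21.9, 32.6 and 80.0 FPKM with IL-33 alone. Replicate 3 was highest in each group, and within each replicate number both cytokine libraries exceeded the IL-33 library. Without the block the log2 fold change of Npc2 was 0.74 with IFN-γ (SE 0.52, adjusted p = 0.562) and 0.87 with IL-27 (SE 0.52, adjusted p = 0.685). With the block its adjusted p was 0.0167 for IFN-γ and 0.0137 for IL-27, and without the replicate 3 libraries the blocked p was 0.0593 for IFN-γ and 0.0550 for IL-27. Stard4, a soluble sterol carrier, measured 9.44 to 15.6 FPKM with IFN-γ, 8.7 to 12.1 FPKM with IL-27 and 12.4 to 15.5 FPKM with IL-33 alone.

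**Figure D4:**
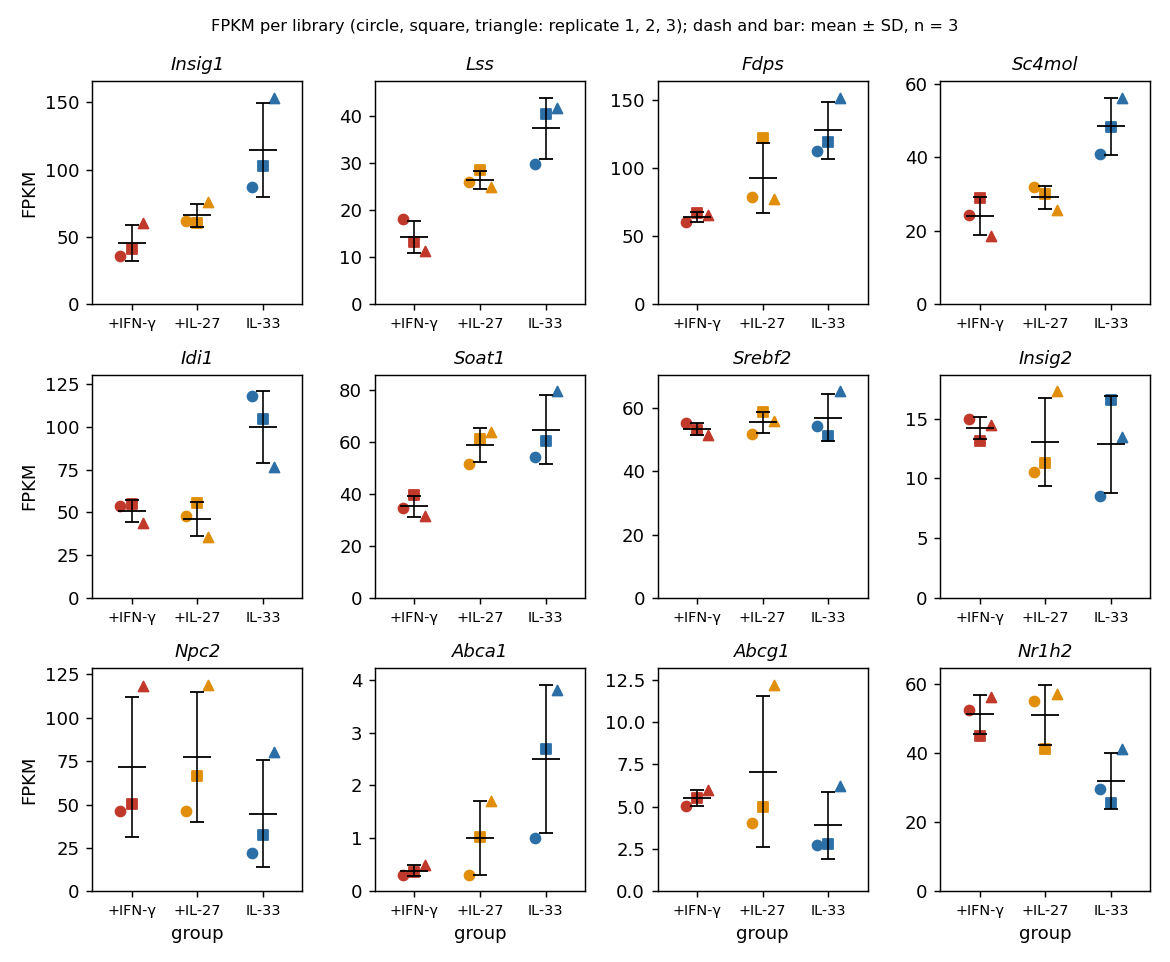
FPKM (y axis, from 0) of 12 sterol genes in the 3 groups (x axis), with a point for each library shaped by replicate number and the mean ± SD of 3 libraries as a dash and bar. Lss shows 3 separate levels, and the 3 IFN-γ libraries of Soat1 lie below the others. Replicate 3 is the highest library of its group for Insig1, Npc2, Abca1, Abcg1 and Nr1h2.

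The export genes did not move as a block. Abca1, the pump that loads cholesterol onto apolipoprotein A-I, had 0.301, 0.375 and 0.5 FPKM with IFN-γ, 0.308, 1.02 and 1.7 FPKM with IL-27, and 1.01, 2.68 and 3.8 FPKM with IL-33 alone. IFN-γ libraries lay below all IL-33 libraries. This came to about 2.71 to 4.53 fragments per library with IFN-γ and 9.1 to 33.6 with IL-33 alone, and Abca1 passed the filter on the mean through its IL-33 libraries. A lower value with IFN-γ is thereby favoured, so the fold changes of Abca1 are given as a description. For Abca1 the log2 fold change with IFN-γ was -1.24 and did not pass (SE 0.44, adjusted p = 0.210, and 0.0573 in the blocked fit). With IL-27 it was -0.77 (SE 0.44, adjusted p = 0.664). The size depends on the pseudocount: with 0.1 in place of 1 added to each FPKM value it was -2.24 with IFN-γ (adjusted p = 0.235) and -1.29 with IL-27 (adjusted p = 0.708). The IL-27 and IL-33 libraries overlapped.

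Abcg1, the pump that passes cholesterol to high-density lipoprotein, had 5.04, 5.54 and 6.0 FPKM with IFN-γ, 4.04, 4.98 and 12.2 FPKM with IL-27, and 2.72, 2.82 and 6.2 FPKM with IL-33 alone. The groups overlapped through IL-33 replicate 3. These values came to about 16 to 19.1 fragments per library with IFN-γ, 12.7 to 40 with IL-27 and 8.6 to 19.3 with IL-33 alone. For Abcg1 the log2 fold change was 0.48 with IFN-γ (SE 0.40, adjusted p = 0.637) and 0.65 with IL-27 (SE 0.40, adjusted p = 0.691), neither of which passed. No test of synthesis against export was made.

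Nr1h2, which encodes LXRβ, had 52.3, 45.0 and 56.2 FPKM with IFN-γ, 55.1, 41.0 and 56.9 FPKM with IL-27, and 29.5, 25.4 and 41.0 FPKM with IL-33 alone. Both cytokine groups lay above all IL-33 libraries, IL-27 replicate 2 by a narrow margin. Nr1h2 had a log2 fold change of 0.68 in the IFN-γ comparison (SE 0.22, adjusted p = 0.163) and 0.67 in the IL-27 comparison (SE 0.22, adjusted p = 0.303). Blocking by replicate number gave it an adjusted p of 0.0138 for IFN-γ and 0.0230 for IL-27, and without the replicate 3 libraries the blocked p was 0.0450 for IFN-γ and 0.0718 for IL-27. Nr1h2 has a processed pseudogene in the mouse annotation, and how reads shared with it were treated is not given in the sources used here. Pseudogenes of the other members are not covered here. Insig1, Npc2, Abca1, Abcg1 and Nr1h2 were each highest, within a group, in replicate 3, where the sum of the fibroblast markers was highest too. The ILC2 markers Gata3, Rora, Id2, Il1rl1, Il7r, Klrg1, Ptprc and Thy1, and also Cd3g, were highest there in every group as well. Il2ra, Il5, Il13 and Areg were not so in every group, and Kit was lowest there in each. Of 8 fibroblast markers 7 passed the filter, and the 8 summed to 3.94 to 86.5 FPKM with IFN-γ, 7.67 to 63.7 FPKM with IL-27 and 2.92 to 36.2 FPKM with IL-33 alone; their part in these levels was not tested.

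With IL-27 the enzymes again lay mostly below IL-33 alone, but none passed the test. No member passed against IL-33 alone in limma, where 0.118% of all tested genes fell and 0.908% rose; at an unadjusted p under 0.05, 10 of the 31 members and 1047 of the 11014 tested genes passed. IL-27 libraries lay wholly below IL-33 for 11 of the 20 enzymes and 13 of the 31 members, where 5.72% of all tested genes did so, and wholly above for Nr1h2, where 8.29% did so. Within the same-number pairs 16 members were lower in all 3, where 19.5% of all tested genes were, and 5 were higher in all 3, where 23.1% were. Abca1 is among the 16, though its IL-33 libraries carried it past the filter. For 17 of the 20 enzymes the log2 fold change was below 0, as for 48.5% of all tested genes, and the median over the enzymes was -0.47, beside 0.012 over all tested genes. In the blocked fit Idi1 and Insig1 were lower and Npc2 and Nr1h2 were higher, where 1.78% of all tested genes were lower and 3.37% higher. Both comparisons share the IL-33 libraries, so their members' values are set side by side and not counted as separate evidence. Leaving out IL-33 replicate 3 made Idi1 pass in limma with IL-27 (adjusted p = 0.0361) and with IFN-γ (0.0373). Idi1 also passed with IFN-γ when IL-27 replicate 3 was left out (0.0478). It did so too with median-ratio scaling (0.0490) and with scaling to a common total without small RNAs (0.0484).

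Set directly against each other, IFN-γ and IL-27 gave no call. No member and no gene at all passed in limma (0% lower and 0% higher), no member passed the blocked fit, where 0.127% of all tested genes were lower and 0.0545% higher, and 4 of the 31 members and 483 of all tested genes had an unadjusted p under 0.05. For Lss the log2 difference between IFN-γ and IL-27 was -0.87 (95% interval -1.36 to -0.38, adjusted p = 0.756). Soat1 had a difference of -0.73 (95% interval -1.15 to -0.30, adjusted p = 0.825), and Mvk one of 0.76 (95% interval 0.22 to 1.30). Mvk did not pass either, and these intervals are not adjusted for the number of genes tested. IFN-γ libraries lay wholly below IL-27 libraries for Hmgcs1, Fdps, Lss and Soat1, which is 4 of 31 members where 4.03% of all tested genes did so, and wholly above for Mvk, where 5.5% did so. Of the 20 enzymes 12 had a log2 fold change below 0, as did 47.8% of all tested genes. A difference between the 2 cytokines was therefore not shown for any member, and the intervals leave room for one.

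The 5 calls with IFN-γ kept their direction but not always their side of the threshold when single libraries were left out. Without each library in turn the log2 fold change ranged over -1.51 to -1.20 for Lss, -1.52 to -1.07 for Insig1, -1.14 to -0.83 for Sc4mol, -1.05 to -0.84 for Fdps and -0.96 to -0.69 for Soat1. Lss was lost without IFN-γ replicate 2 (adjusted p = 0.0521) and without IL-33 replicate 2 (0.0506). Insig1 was lost without IFN-γ replicate 1 (0.101) or 2 (0.102), IL-27 replicate 2 (0.0502), or IL-33 replicate 2 (0.0773) or 3 (0.0645). Fdps passed only without IL-27 replicate 2 (0.0233) or 3 (0.0460), and Sc4mol only without IL-27 replicate 3 (0.0472). Soat1 was lost whichever of the 9 libraries was left out (0.0632 to 0.168). With all replicate 3 libraries left out Insig1 alone passed, with its log2 value at -1.29 (adjusted p = 0.0288). In the blocked fit without them Insig1 (0.0119) and Idi1 (0.0240) were lower and Nr1h2 (0.0450) was higher with IFN-γ, and Idi1 (0.0326) was lower with IL-27; no other member passed.

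Of 6 further sterol enzymes and partners tested, Tmem97 fell with IFN-γ. Tmem97 encodes the sigma-2 receptor, a protein tied to NPC1 and known to respond to sterol loss. It had 74.3, 74.2 and 45.5 FPKM with IFN-γ, 118.8, 92.4 and 73.3 FPKM with IL-27, and 247.7, 183.1 and 142.9 FPKM with IL-33 alone. Every library with a second cytokine lay below every IL-33 library. Tmem97 fell by 1.55 on the log2 scale with IFN-γ (SE 0.28, adjusted p = 0.0167), and its log2 fold change with IL-27 was -0.995 (SE 0.28, adjusted p = 0.193, and 0.00313 in the blocked fit). In the blocked fit Por, the electron donor of Cyp51 and Sqle, and Acly, which supplies cytosolic acetyl-CoA, were lower with IFN-γ as well.

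None of 7 further genes of SREBP control passed in either comparison with IL-33, nor did any of 12 further genes of uptake and transport or 9 of export and LXR response. In the blocked fit with IFN-γ, Rnf139, an ubiquitin ligase of the endoplasmic reticulum, and Stard3nl, an endosomal tether, were higher and Scarb1, the receptor for high-density lipoprotein, was lower. Of the 9 genes of export and LXR response, Smpdl3a and Abca7 were higher in the blocked fit with either cytokine. Lpcat3, a phospholipid enzyme of the same list, was lower in it with IFN-γ. Nr1h3, which encodes LXRα, was listed at 0 in 7 of the 9 libraries and at 0.6 FPKM in replicate 3 with IFN-γ and with IL-27. Ch25h, the enzyme that makes 25-hydroxycholesterol, was listed at 0 in the same 7 libraries and at 1.7 FPKM in the same 2.

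The branch of the route that leaves for protein prenylation, ubiquinone and dolichol was represented by 12 genes. None passed in either comparison with IL-33, and the median log2 fold change was -0.14 with IFN-γ and -0.10 with IL-27. In the blocked fit Zmpste24, the protease that trims farnesylated proteins, was lower with IFN-γ, at a log2 fold change of -0.64 (adjusted p = 0.149 without the block and 0.0265 with it).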

How the data were processed

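RNA was extracted with an Allprep micro kit and libraries were made with TruSeq RNA v2 kits, per the labels' protocols. Per the submitters' processing notes, Bowtie2 2.1.0, TopHat2 2.0.8 and Cufflinks 2.1.1 were used with build mm9; their roles, parameters and gene annotation are not given in the sources used here. The authors deposited 1 value per gene and library, taken here as FPKM, since a Cufflinks column header is present and the values are decimal and never negative. Replicate 3 tables hold 1 decimal and digit-grouping commas, which were removed. FPKM corrects for length and total, so a rise of abundant transcripts lowers the rest: library sums were 628625 to 672534, and small RNAs took 3.51% to 17.95% of them. Depth was estimated from steps between low values with GENCODE vM1 gene lengths and is approximate.

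Genes averaging 1 FPKM or more across all 9 libraries were analysed as log2(FPKM + 1) with limma 3.58.1 in R 4.3.3 (eBayes with trend, two-sided, Benjamini-Hochberg within each comparison, threshold 0.05). Folds on this scale understate changes of low genes. The code was checked on simulated data. The 9 pairs of libraries with the same replicate number had correlated deviations from their group means (r 0.128 to 0.367). For the 18 other pairs r was -0.298 to -0.0251. Deviations within a group cancel out, so these ranges are not separate evidence. Numbers were taken to pair libraries on this basis, and the labels do not say what a number shares. Members and gene lists were chosen with earlier results of these data known. All members were accounted for, with full statistics for those that passed in any comparison and for 10 named regulators and carriers. Gene positions come from GENCODE vM1. Alternatives covered pseudocount, filter, scaling, moderation, replicate block and left-out libraries. 1 gene of the further sterol list and 1 promoter motif are not reported here. Tables and figures used matplotlib 3.10.9, pandas 2.3.3 and numpy 2.4.6 under Python 3.11.15.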

Additional observations from a re-analysis of the deposited data

How the results depend on the processing

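With the replicate block, 8 members were lower and 2 higher with IFN-γ and 2 lower and 2 higher with IL-27; genes passing numbered 1230, 567 and 20 in the IFN-γ, IL-27 and direct comparisons, against 320, 113 and 0. No other member's call changed under the block. Without a filter, 3 members were lower with IFN-γ and 2 genes passed the direct comparison. Without the replicate 3 libraries, 1 member was lower with IFN-γ, 176, 68 and 2 genes passed, and the median log2 fold change of synthesis genes was -0.25 with IFN-γ and -0.25 with IL-27. Adding the block to that gave 2 lower and 1 higher with IFN-γ, 1 lower with IL-27, a median of -0.25 with IFN-γ, and 188 and 3 genes in the IL-27 and direct comparisons. Fitting only the 2 groups compared gave 2 members lower with IFN-γ and 187 and 63 genes. Scaling to a common total without small RNAs moved the IFN-γ median to -0.45. Leaving out single libraries gave 0 to 5 members lower with IFN-γ and 0 to 1 with IL-27; 161 to 303, 50 to 128 and 0 to 2 genes; and medians of -0.46 to -0.33, -0.54 to -0.34 and -0.16 to 0.013, the last reversing. The causes were not tested.

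Small values changed sign: without replicate 3, Srebf2 was 0.036 with IFN-γ and 0.063 with IL-27, Scap 0.049 and 0.050, and Insig2 -0.12 with IL-27 (-0.013 under that scaling). Leaving out single libraries gave Srebf2 -0.16 to 0.012 and -0.11 to 0.068, Scap -0.30 to 0.15 and -0.12 to 0.15, Insig2 -0.069 to 0.37 and -0.21 to 0.23, and Soat1 -0.24 to 0.034 with IL-27. With 3 libraries a group and at most about 967000 fragments each, Tm7sf2 in all groups and Abca1 with IFN-γ rest on a few fragments. Abca1 with IL-27 came to about 2.75 to 15.8 fragments per library, and Abcg1 with IL-33 alone to about 8.6 to 19.3.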
